A study of Mus musculus with 4 samples.

Results

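The 8 genes described here are common reference genes, to which the RNA level of other genes is normalised in quantitative PCR. They were taken by symbol, not by value. *Gapdh*, *Hprt*, *Tbp*, *Ppia*, *Ywhaz*, *Gusb*, *Polr2a* and *B2m* each matched 1 of the 48526 genes in the count files, and all 8 had enough reads to be tested. RNA-seq had been performed on mouse embryonic stem cells (ESCs). The study's methods describe R1 ESCs grown on gelatine with serum, LIF, the MEK inhibitor PD0325901 and the GSK3 inhibitor CHIR99021. WT libraries (n = 2) are labelled as wild-type ESCs, and the sources used here do not name their line separately. KO2 libraries (n = 2) came from *Zfp296* knockout clone 2. It is a monoclonal line made from R1 cells with CRISPR/Cas9, a guide to the first exon and puromycin selection. ZFP296 is a zinc finger protein that binds the NuRD chromatin complex. With 1 clone, a change due to the knockout cannot be told apart from a property of that clone. The 2 libraries of a group were labelled as replicates 1 and 2 and came from RNA isolated in duplicate. Whether they came from separate cultures is not stated. The p-values measure only the spread between these libraries.

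A reference gene is useful when its transcript makes up the same share of the RNA in every sample, since any change in it is passed on, inverted, to every gene divided by it. Such genes are drawn from unrelated housekeeping tasks, so that they are unlikely to share a regulator. Many of the most abundant among them have left processed pseudogenes, intronless copies of the mRNA inserted elsewhere in the genome, and RNA-seq reads that fit the gene and a copy equally well cannot be assigned to either.

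The WT libraries had 2829914 (replicate 1) and 4334499 (replicate 2) gene counts, and the KO2 libraries had 7470907 and 7437294. Values are given as CPM, read counts relative to the total of their library after TMM normalisation (a trimmed mean over all genes that sets the libraries to one level), and fold changes are KO2 over WT from the quasi-likelihood test of edgeR, with p-values adjusted by Benjamini-Hochberg over 12883 tested genes. Markers of pluripotent cells, among them *Pou5f1* and *Nanog*, summed to 6456 to 6539 CPM in WT and 6180 to 6614 CPM in KO2. Of these 12 markers *Sox2* was the 1 called, and fell from 839 ± 47.2 to 486 ± 4.39 CPM (log2 fold change -0.79, adjusted p = 7.82e-05, not called on the scale of the ERCC spike-ins, RNAs added to each sample). Fibroblast markers, which would come from feeder cells, summed to 2.14 to 5.67 CPM, and 4 of the 9 (*Lum*, *Dcn*, *Postn* and *Twist2*) had 0 counts in every library. Differentiation markers summed to 148 to 153 CPM in WT and 206 to 216 CPM in KO2. Most of each sum came from *Nes* (86.5 to 97.6 CPM in WT, 113 to 120 CPM in KO2) and *Tubb3* (48.8 to 55.5 and 63.5 to 76.7 CPM), neither called. *Krt8*, a keratin of simple epithelia, was the 1 called of 5 tested. It rose from 2.16 ± 0.951 to 13.7 ± 0.0430 CPM (SD, n = 2). The part of these markers in the results below was not tested. *Zfp296* itself had 31 counts in each WT library against 416 and 282 in the KO2 libraries, a rise of 2.31 on the log2 scale (SE 0.29, adjusted p = 4.64e-05, and 0.0573 with no filter on low counts). A cut in the first exon can leave the transcript countable, so these counts do not check the label. The cause of the rise was not tested. The study tested its knockout lines at the protein level by mass spectrometry, which was not analysed here, and KO2 below means the libraries labelled as knockout. Y-linked *Ddx3y*, *Uty* and *Eif2s3y* had 0 or 1 counts in each WT library and between 723 and 2197 in each KO2 library, so the lines also differed in Y-linked RNA, and its part in the values below cannot be told apart from that of the knockout.

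**Figure D1:**
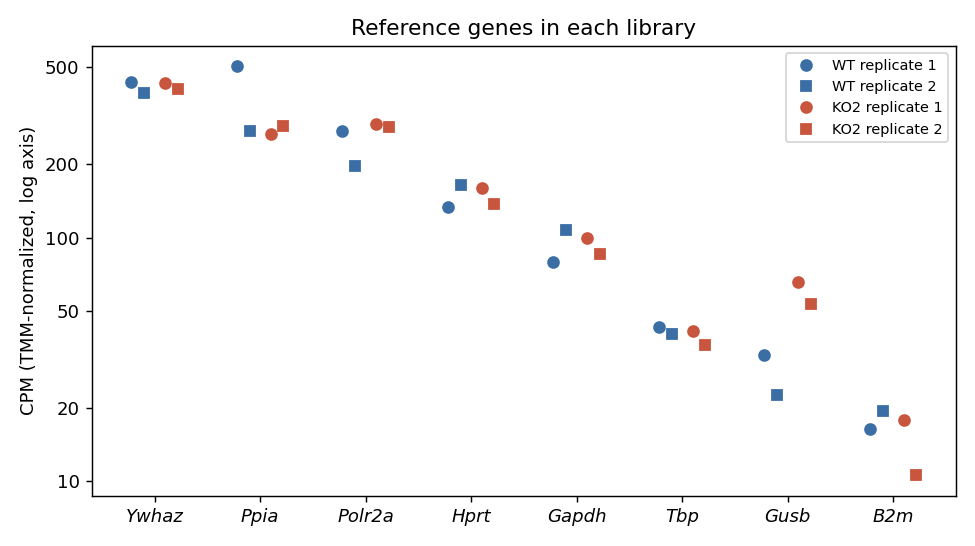
Level of each of the 8 reference genes in each library, in CPM on a log axis, with WT and KO2 libraries as separate points. *Gusb* and *Polr2a* are the 2 genes whose groups do not overlap, and WT replicate 1 of *Ppia* (505 CPM) stands apart from the other 3 libraries (266 to 288 CPM).

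Of the 8 genes, *Gusb* was the 1 that differed between KO2 and WT at an adjusted p under 0.05, against 5.64% of all tested genes. None of the 8 was called lower in KO2, against 3.04% of all tested genes, and *Ppia* was the 1 with an unadjusted p under 0.05 in that direction. *Ywhaz*, *Hprt*, *Gapdh* and *Tbp* had fold changes of at most 0.10 on the log2 scale in either direction. *Polr2a* and *B2m* moved further without passing the test, and the estimates of *Polr2a*, *B2m* and *Ppia* each rested largely on 1 library. The plot of CPM by library shows these values, and the genes are taken in turn below by the work their products do.

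*Ywhaz* encodes a 14-3-3 protein, an adaptor that binds phosphorylated partners in signalling. It lies on the minus strand at chr15:36700525-36724302 (mm9, as for all coordinates here). The 1167 and 1655 WT counts and the 3400 and 3042 KO2 counts corresponded to 435 and 391 CPM in WT and 431 and 407 CPM in KO2. Both KO2 values lay between the WT values. The group levels were 413 ± 31.0 and 419 ± 17.3 CPM, a log2 fold change of 0.02 (SE 0.11, adjusted p = 0.942) with a 95% interval of 0.869 to 1.19 on the fold scale. Of the 8 genes this was the interval whose farther bound lay nearest to no change.

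*Gapdh* encodes glyceraldehyde-3-phosphate dehydrogenase of glycolysis and lies on the minus strand at chr6:125111871-125116485. The libraries held 79.4 and 107 CPM in WT and 99.7 and 85.5 CPM in KO2, from 213, 454, 786 and 640 counts. Both KO2 libraries again lay within the WT range. The log2 fold change was -0.02 (SE 0.16, adjusted p = 0.960), with an interval of 0.785 to 1.24 in fold. The point estimate was as close to 0 as that of *Ywhaz*, with wider error.

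*Hprt* encodes the purine salvage enzyme that returns hypoxanthine and guanine to nucleotides, and lies on the plus strand at chrX:50341314-50374836. It was measured at 133 and 165 CPM in WT and at 160 and 138 CPM in KO2. The KO2 values lay inside the WT range, and the group means were 149 ± 22.4 and 149 ± 16 CPM. The log2 fold change of -0.01 (SE 0.14, adjusted p = 0.990) was the smallest of the 8, with an interval of 0.818 to 1.21 in fold.

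*Tbp* encodes the TATA-binding protein, which the general factor TFIID uses to engage core promoters. It lies on the plus strand at chr17:15636852-15665343, with *Pdcd2* overlapping it on the other strand. Its level was 42.9 and 40.2 CPM in WT and 41.2 and 36.2 CPM in KO2. The groups overlapped, and the log2 fold change was -0.10 (SE 0.19, adjusted p = 0.842). With 115 to 325 counts in a library, the interval ran from 0.713 to 1.23 in fold.

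*Polr2a* encodes the largest subunit of RNA polymerase II and lies on the minus strand at chr11:69547499-69572139. It was at 274 and 197 CPM in WT and at 293 and 286 CPM in KO2. Both KO2 libraries were above both WT libraries, as 2 of the 8 genes were without overlap, against 48.8% of all tested genes. The log2 fold change was 0.30 (SE 0.13), its interval of 1.02 to 1.50 in fold left out no change, and the adjusted p was 0.216. The WT libraries differed by 0.47 on the log2 scale and the KO2 libraries by 0.04. The log2 fold change was 0.56 without WT replicate 1 and 0.08 without WT replicate 2.

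*Gusb* encodes beta-glucuronidase, a lysosomal enzyme that breaks down glycosaminoglycans, and lies on the minus strand at chr5:130464881-130478919. The 88 and 95 WT counts and the 517 and 399 KO2 counts corresponded to 32.8 and 22.4 CPM in WT and 65.6 and 53.3 CPM in KO2. The lower KO2 library was well above the higher WT library. *Gusb* rose from 27.6 ± 7.32 to 59.4 ± 8.64 CPM, a log2 fold change of 1.14 (SE 0.21, adjusted p = 0.00250) or 2.20-fold with an interval of 1.62 to 2.98, where 2.6% of all tested genes were called higher in KO2. The call was lost without WT replicate 2 (log2 fold change 0.86, adjusted p = 0.0513), on the ERCC scale (1.22, 0.0624) and with no filter on low counts (1.17, 0.147), and the direction held without any 1 of the 4 libraries. In bulk RNA a larger share of cells with the transcript and more transcript per cell cannot be told apart.

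*Ppia* encodes cyclophilin A, a peptidyl-prolyl isomerase, and lies on the plus strand at chr11:6315446-6319820. WT replicate 1 held 505 CPM and the remaining libraries held 273 (WT replicate 2), 266 and 288 CPM (KO2). The groups overlapped, because WT replicate 2 lay between the KO2 libraries. The log2 fold change over all libraries was -0.48 (SE 0.18, adjusted p = 0.134). It was 0.02 without WT replicate 1 and -0.87 (adjusted p = 0.00300) without WT replicate 2, so the estimate rested on WT replicate 1. Leaving out KO2 replicate 2 gave -0.54, which passed the test (adjusted p = 0.00933).

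*B2m* encodes the light chain of MHC class I molecules and lies on the plus strand at chr2:121973422-121978819, inside *Patl2* on the other strand. It was the least counted of the 8, with 44, 82, 141 and 79 counts, or 16.4 and 19.4 CPM in WT and 17.9 and 10.6 CPM in KO2. KO2 replicate 2 was the lowest library and KO2 replicate 1 lay within the WT range. The log2 fold change was -0.34 (SE 0.32, adjusted p = 0.615), and its interval of 0.499 to 1.25 in fold reached past a 2-fold difference. The *B2m* estimate was -0.78 without KO2 replicate 1 and -0.02 without KO2 replicate 2. For 6 of the 8 genes the interval lay within 2-fold in both directions, the exceptions being *Gusb* and *B2m*.

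**Figure D2:**
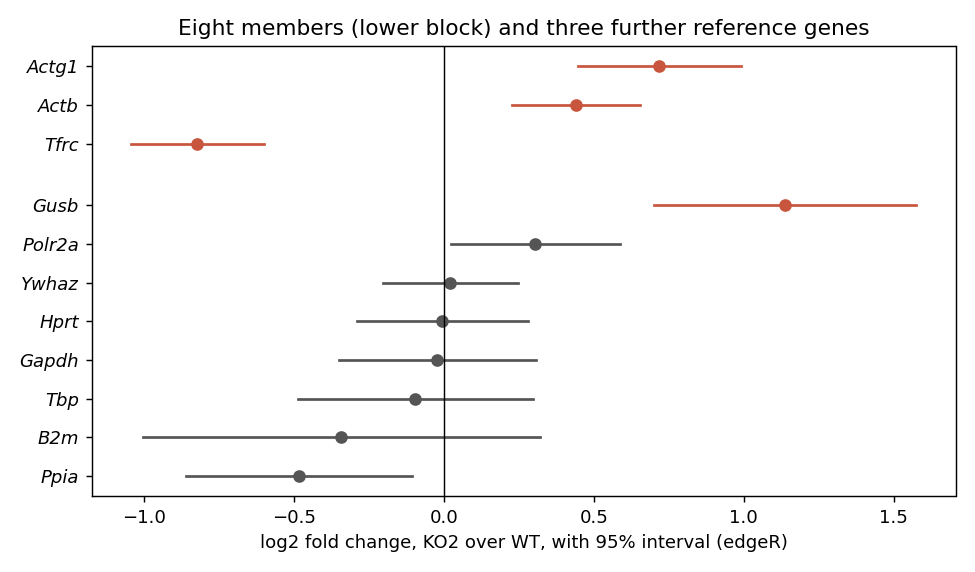
Log2 fold change of KO2 over WT (points) with 95% intervals (lines), from the quasi-likelihood test, n = 2 libraries a group. The lower block holds the 8 genes and the upper block the further reference genes *Tfrc*, *Actb* and *Actg1*, whose intervals leave out 0. Among the 8, the *Gusb* interval lies farthest from 0, the *Polr2a* and *Ppia* intervals leave out 0 without passing the adjusted threshold, and the other 5 cross it.

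Spread between replicates was set beside the error that counting alone would give. In WT, the 2 libraries differed for *Ppia* by 0.89 on the log2 scale with a counting SE of 0.058, a far larger gap than reads alone would leave. For *Polr2a* the WT gap was 0.47 (counting SE 0.073) and for *Gapdh* 0.43 (counting SE 0.12). For *Tbp* the WT gap of 0.09 was below its counting SE of 0.17, so that no spread beyond counting was detectable at this depth, and the same held for *B2m* with 0.24 (counting SE 0.27). In KO2 the gaps were at most 0.30 for every gene but *B2m*, which differed by 0.76 (counting SE 0.20).

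Over all 4 libraries, the SD of log2 CPM was 0.073 for *Ywhaz*, 0.10 for *Tbp*, 0.15 for *Hprt* and 0.20 for *Gapdh*. It was 0.27 for *Polr2a*, 0.39 for *B2m*, 0.44 for *Ppia* and 0.70 for *Gusb*. Among all tested genes the median SD was 0.28, so the first 5 genes varied less and the last 3 more than the typical transcript. *Ywhaz* was steadier than most, with 4.54% of tested genes having a smaller SD, against 22.6% for *Hprt*, 33.7% for *Gapdh* and 83.6% for *Gusb*. These SDs cover both the replicate spread and the difference between groups. They also hold counting error, which is larger for genes with fewer reads, and the tested genes were not matched for read count.

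Stability within the set was described with M, the mean over the other genes of the SD of the log2 ratio of a gene to each of them, in which a small value marks a gene that keeps its ratio to the rest. M does not depend on TMM, since a scale shared by the genes of a library cancels in a ratio. *Ywhaz* (0.315) and *Tbp* (0.317) came first and were indistinguishable. *Hprt* (0.344), *Gapdh* (0.376) and *Polr2a* (0.404) followed, and *B2m* (0.491), *Ppia* (0.562) and *Gusb* (0.748) came last. When each library was left out in turn, *Ywhaz* ranged from 0.263 to 0.340 and stayed in rank 1 or 2, *Tbp* from 0.276 to 0.344, *Hprt* from 0.262 to 0.387, and *Gusb* from 0.577 to 0.838. *Tbp* ranked first without WT replicate 1 and *Hprt* first without WT replicate 2, which bears on how finely the first ranks can be read. *Gusb* was last in each case except without WT replicate 2, when *Ppia* was last. No p-value is attached to M, and with 2 libraries against 2 an exact permutation test could not go below 0.333.

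**Figure D3:**
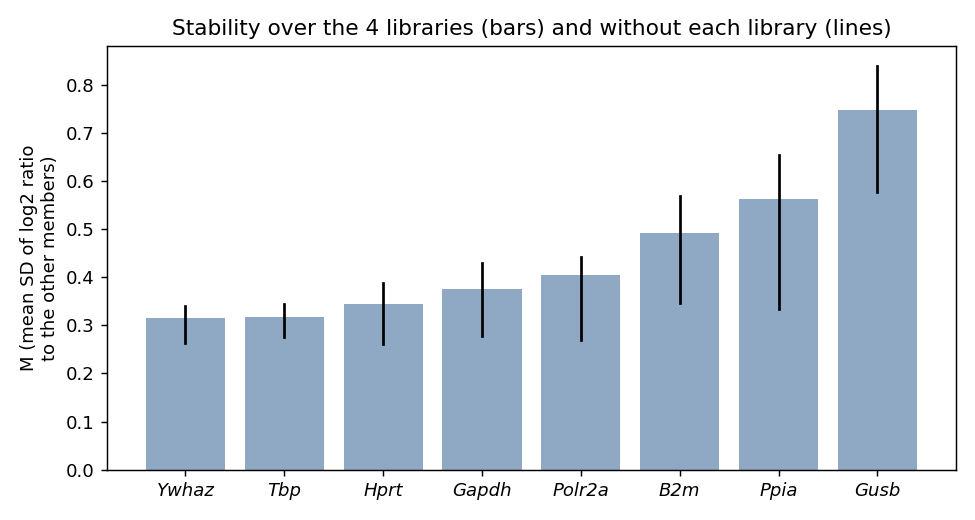
Stability measure M of each of the 8 genes (bars, mean SD of log2 ratios to the other 7 genes) with the range obtained when each library is left out in turn (lines). The ranges of *Ywhaz*, *Tbp* and *Hprt* overlap at the low end, and the *Gusb* bar of 0.748 is the highest.

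The ratio between a pair of genes shows which genes moved together. Of the 28 pairs, *Gapdh* and *Hprt* kept the most constant ratio, at 0.597 and 0.651 in WT and 0.622 and 0.622 in KO2 (SD of the log2 ratio 0.052). Both were lower in WT replicate 1 and in KO2 replicate 2 than in their partner library, by like factors. *Tbp* to *Ywhaz* came next, at 0.0985 and 0.103 in WT and 0.0956 and 0.0891 in KO2 (SD 0.087). The widest ratio was *Gusb* to *B2m*, with 2.00 and 1.16 in WT and 3.67 and 5.05 in KO2 (SD 0.94). When the gene with the largest M was removed step by step, *Gusb*, *Ppia*, *B2m*, *Polr2a*, *Ywhaz* and *Tbp* left in that order, and *Gapdh* with *Hprt* remained as the last pair. The order at the stable end therefore turned on the method, with *Ywhaz* and *Tbp* first by M over all 8 genes and *Gapdh* and *Hprt* first by stepwise removal, whereas *Gusb* and *Ppia* were the first to leave by stepwise removal and the last by M.

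**Figure D4:**
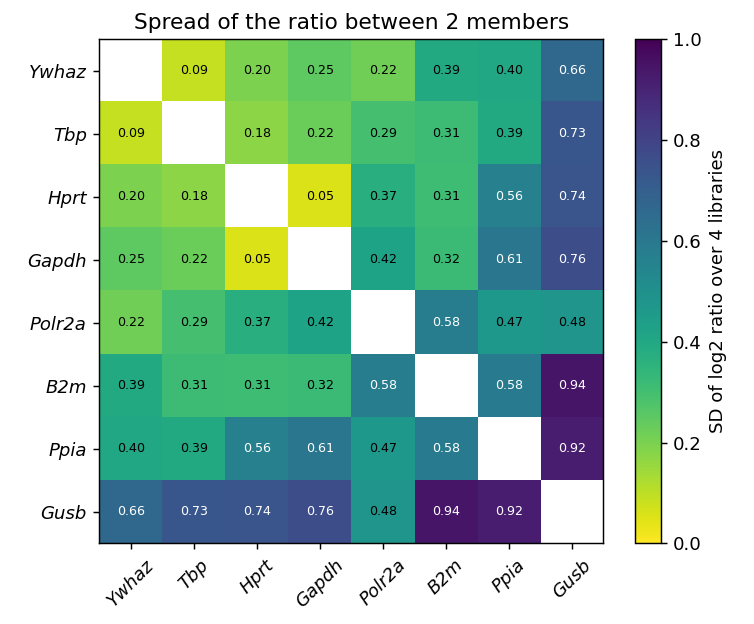
SD over the 4 libraries of the log2 ratio for each of the 28 pairs of reference genes, as a grid with a colour scale in log2 units. The *Gapdh* and *Hprt* pair has the lowest value, 0.052, and pairs with *Gusb* hold the highest, up to 0.94.

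Levels were also compared per length, as CPM per kilobase of the annotated transcript with the longest coding sequence. In WT the order ran from *Ppia* (333 ± 140, SD, n = 2) through *Ywhaz* (195 ± 14.6), *Hprt* (115 ± 17.4), *Gapdh* (73.4 ± 15.5) and *Polr2a* (34.9 ± 8.02) to *Tbp* (22 ± 1.01), *B2m* (20.8 ± 2.45) and *Gusb* (10.3 ± 2.72). *Tbp* and *B2m* did not differ beyond their spread, and the other neighbours in the WT order were apart by more than the SD of either gene, except *Ppia* and *Ywhaz*, where the SD of *Ppia* was 140. In KO2 the first 5 kept their order, with *Gusb* (22.1 ± 3.22) level with *Tbp* (20.5 ± 1.87) and above *B2m* (16.5 ± 6.02). These levels are those of uniquely placed reads, which understate a gene whose sequence occurs elsewhere.

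That limit was measured for each gene by searching the mm9 genome for every window of 50 bases of its transcript outside its own locus, a length set between the 43 and 75 bases that the study's methods give for its sequenced tags without tying either to these libraries. For *Gapdh*, 93.9% of windows and 100% of those in the coding sequence had an exact match at another of 233 loci. For *Ppia* the share was 61.9% over 41 loci and for *Ywhaz* 78.3% over 3 loci. *Hprt*, *Tbp*, *Gusb*, *Polr2a* and *B2m* had 0 such windows. With windows of 43 and 75 bases the shares were 94.0 and 93.8% for *Gapdh*, 62.1 and 61.0% for *Ppia* and 79.9 and 72.1% for *Ywhaz*, and those 5 genes again had 0. The 3 genes are represented here by 70 bases of mRNA across an exon junction, because a stretch that is spliced in the gene and unbroken in the genome marks an intronless copy. Capitals mark the last base of one exon and the first of the next, and each stretch was found unbroken, identical at 70 of 70 bases, at the copy named.
*Gapdh* exons 3 and 4: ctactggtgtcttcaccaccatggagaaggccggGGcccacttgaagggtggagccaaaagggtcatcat
*Ppia* exons 1 and 2: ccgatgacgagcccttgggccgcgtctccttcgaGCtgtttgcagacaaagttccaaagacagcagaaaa
*Ywhaz* exons 2 and 3: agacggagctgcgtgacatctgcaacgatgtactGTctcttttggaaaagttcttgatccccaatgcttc
The *Gapdh* copy lay at chr4:91519005-91519074 on the minus strand, outside any annotated gene. The *Ppia* copy lay at chr9:96796111-96796180 in *Gm10123*, and the *Ywhaz* copy at chr3:92493607-92493676 in *Gm17510*, both on the plus strand. In the genes these junctions are split by introns of 98 bases in *Gapdh*, 2121 bases in *Ppia* and 14314 bases in *Ywhaz*.

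Reads counted on annotated copies gave a way to see how the gene counts depended on them. The 58 annotated rows at *Gapdh* copies held 57, 107, 208 and 185 counts, which was 19.1 to 22.4% of the sum of gene and copies in every library. That share was steady, and the sum gave a log2 difference of 0.03 between KO2 and WT. The 14 rows at *Ppia* copies behaved otherwise, with 12.3% of the sum in WT replicate 1 and 27.3 to 29.3% in the other 3 libraries, so the library that was high for the gene was low in the share on its copies. Summed over gene and copies, *Ppia* stood at 576 and 380 CPM in WT and 366 and 407 CPM in KO2, and the gap between WT libraries narrowed from 0.89 to 0.60 on the log2 scale. The difference of the sums between KO2 and WT was -0.28, against -0.48 for the gene alone. For *Ywhaz*, copies held 1.19% of the sum in WT replicate 1 and 3.87 to 5.76% elsewhere, and the SD over 4 libraries went from 0.073 to 0.059. Whether unplaced reads differed between libraries for these genes was not tested.

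A wider set of 31 other genes used as references was read in the same way. Of these, 30 were in the files and tested, 3 passed the test (5.64% of all tested genes did) and 12 had groups that did not overlap (48.8% of all tested genes), with a median log2 fold change of 0.05 against 0.01 for all tested genes and -0.01 for the 8 genes. *Actb*, the cytoplasmic actin used with *Gapdh* as reference in the quantitative PCR of the study, was at 1018 and 1075 CPM in WT and 1512 and 1331 CPM in KO2. Both KO2 libraries were above both WT libraries. *Actb* rose by 0.44 on the log2 scale (SE 0.10, adjusted p = 0.0139). On the scale of *Gapdh* and *Actb* the estimate was 0.22 (adjusted p = 0.761). That scale holds *Actb* itself, which draws the estimate towards 0 by construction. The call was lost at an estimate of 0.52 on the ERCC scale (adjusted p = 0.899), 0.36 on the scale of the 8 genes (0.533) and 0.47 with no filter on low counts (0.130). It was also lost without WT replicate 1 (0.40, adjusted p = 0.176), WT replicate 2 (0.48, 0.0902) or KO2 replicate 1 (0.35, 0.0806). *Actg1*, the other cytoplasmic actin, rose from 174 ± 10.4 to 286 ± 50.3 CPM, by 0.72 on the log2 scale (SE 0.13, adjusted p = 0.00216), and 93.6% of its windows occurred elsewhere. That call was lost on the ERCC scale (0.78, adjusted p = 0.394), on the scale of the 8 genes (0.63, 0.0569), on those of *Gapdh* with *Actb* (0.49, 0.263) and *Actb* (0.27, 0.264), with no filter (0.75, 0.152) and without WT replicate 1 (0.66, 0.0698). *Tfrc*, the transferrin receptor, fell from 1990 ± 60.0 to 1125 ± 140 CPM, a log2 fold change of -0.82 (SE 0.11, adjusted p = 7.59e-05), with no window elsewhere and a call lost on the ERCC scale (-0.71, adjusted p = 0.671). *Rpl4*, a ribosomal protein at 1575 ± 28.0 and 1573 ± 73.6 CPM, and *Nono*, an RNA-binding protein at 355 ± 48.8 and 348 ± 2.30 CPM, had the smallest fold changes among those above 100 CPM. Elsewhere in the genome occurred 17.8% of the windows of *Rpl4* and 51.9% of those of *Nono*. The SD over 4 libraries was 0.042 for *Rpl4* and 0.12 for *Nono*, against 0.073 for *Ywhaz*. *Tubb5* (0.041) and *Eef1a1* (0.059) also had a smaller SD than *Ywhaz*.

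The mean of the 8 genes on the log2 scale corresponded to 105 and 94.8 CPM in WT and 113 and 97.3 CPM in KO2. Of 2309 genes at 100 CPM or more, *Rplp0*, a ribosomal stalk protein that is itself a common reference, followed that mean most closely over the 4 libraries, with an SD of the log2 difference of 0.0048. That SD is the smallest of the 2309 and lies below the counting SE of the gap between *Rplp0* replicates (0.049 in WT and 0.032 in KO2), and 50.7% of its windows occurred elsewhere. *Hdgfrp2*, *Fkbp8*, *Cap1* and *Sympk* came next with 0.020 to 0.027. Among the 8 genes, *Ywhaz* (0.059) and *Tbp* (0.10) lay closest to the mean they belong to, and *Gusb* (0.63) farthest.

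The genes that share a pathway or family with each reference gene were taken next, from lists that leave out the reference gene itself. Around *Gapdh*, 7 of 17 tested glycolytic enzymes fell, against 3.04% of all tested genes, and 0 rose, 14 of the 17 estimates were below 0, and the median log2 fold change was -0.38. *Ldhb*, a lactate dehydrogenase subunit, fell from 131 ± 2.56 to 55.9 ± 14.8 CPM, a log2 fold change of -1.23. *Pfkl* and *Pfkp*, subunits of phosphofructokinase, had log2 fold changes of -0.89 and -0.88, where *Gapdh* had -0.02. The called enzymes numbered 4 without WT replicate 1, 4 without WT replicate 2, 3 on the scale of the 8 genes, 3 on that of *Gapdh* with *Actb*, and 1 each on the ERCC scale and with no filter.

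Of all 12883 tested genes, edgeR called 5.64%, and 2499 had an unadjusted p under 0.05. DESeq2 called 4.10% of the genes it tested. In lists of 9 to 19 genes, 0 calls cannot be told apart from these shares. Around *Gusb*, 0 of 19 tested lysosomal glycosidases and enzymes of glycosaminoglycan breakdown passed edgeR's test. Of these, 2 had an unadjusted p under 0.05 and 0 passed in DESeq2, with a median log2 fold change of 0.31 and a range from -0.99 to 1.89. Around *Polr2a*, 0 of 11 polymerase II subunits passed edgeR's test (2 at an unadjusted p under 0.05, 0 in DESeq2), and 10 of the 11 estimates were above 0, with a median of 0.24 beside 0.30 for *Polr2a*. Cyclophilins related to *Ppia* had 0 of 15 called in edgeR (4 at an unadjusted p under 0.05, 0 in DESeq2) and a median of -0.10. Genes of MHC class I presentation, a list wider than the MHC class I genes themselves, had 0 of 9 called in edgeR (3 at an unadjusted p under 0.05, 0 in DESeq2). The median of that list was 0.28, opposite in sign to the -0.34 of *B2m*.

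In each of the remaining lists, of 6, 8 and 15 tested genes, 1 gene was called, where 5.64% of all tested genes were. *Sfn*, the 14-3-3 sigma gene, rose from 8.25 ± 2.70 to 41.3 ± 0.528 CPM, by 2.27 on the log2 scale (SE 0.27), and was the 1 called of 6 relatives of *Ywhaz*. *Aprt*, which salvages adenine, rose from 29.1 ± 3.69 to 53.2 ± 0.962 CPM, by 0.89 (SE 0.19), and was the 1 called of 8 purine salvage genes listed with *Hprt*, lost without WT replicate 2 (0.75, adjusted p = 0.0692), on the ERCC, *Gapdh* with *Actb* and *Actb* scales and with no filter. *Taf1*, the largest TFIID subunit, fell from 390 ± 18.6 to 299 ± 18.9 CPM, a log2 fold change of -0.38 (adjusted p = 0.0446), and was the 1 called of 15 genes listed with *Tbp*, lost without WT replicate 1, WT replicate 2 or KO2 replicate 1, on the ERCC scale, on those of the 8 genes and of *Gapdh* with *Actb*, and with no filter. *Ywhaz*, *Hprt* and *Tbp* themselves had estimates of 0.02, -0.01 and -0.10.

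What each reference would do to the rest of the transcriptome was computed by scaling the libraries to it in place of TMM. By construction this moves all genes together, by about the inverse of the change in the reference. On the TMM scale the median log2 fold change of all tested genes was 0.01, and 726 genes were called, 46.1% of them higher in KO2. Scaled to *Ywhaz*, the median was -0.02 and 662 genes were called, 44.7% higher. Scaled to *Hprt* or *Gapdh* the median was 0.03 or 0.04, and the calls numbered 366 (53.8% higher) and 231 (55.0% higher). Scaled to *Tbp* the median was 0.11 and 734 genes were called, 66.2% higher.

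The other 4 genes moved the scale further. *Polr2a* shifted the median to -0.33 with 422 genes called, 11.6% of them higher. *Ppia* and *B2m* shifted it to 0.38 and 0.40 and left 37 and 40 calls, 83.8% and 72.5% of them higher. *Gusb* shifted it to -1.14, and 8168 genes were then called, 0.380% of them higher. The geometric mean of all 8 genes gave a median of -0.06 and 568 calls (40.3% higher). *Gapdh* with *Actb*, the reference genes named for the quantitative PCR of the study, gave -0.19 and 570 calls (23.3% higher). *Actb* alone gave -0.42 and 3534 calls (4.73% higher). These are shifts of RNA-seq counts, and the quantitative PCR itself was not analysed here.

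The size of a single change moved with the reference, as 2 genes show that were chosen after their values were seen and fell by more than any of these shifts could offset. *Dazl*, a germ cell RNA-binding protein, had a log2 fold change of -2.19 on the TMM scale, -2.21 against *Ywhaz*, -3.34 against *Gusb* and -1.78 against *B2m*. *Lefty2*, a Nodal antagonist, had -2.07 on the TMM scale, -2.09 against *Ywhaz*, -3.21 against *Gusb* and -1.68 against *Ppia*.

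**Figure D5:**
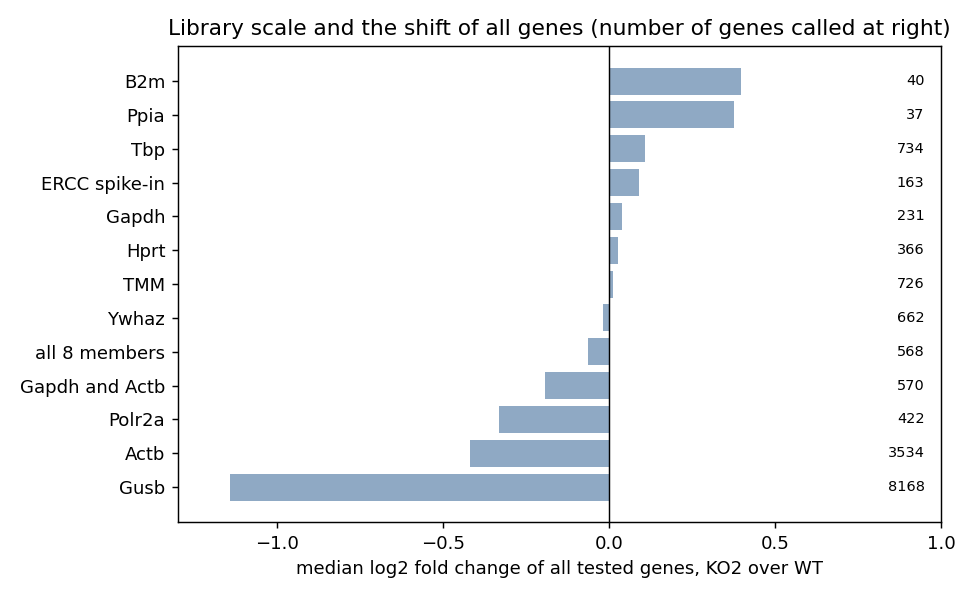
Median log2 fold change (KO2 over WT) of all tested genes when the libraries are scaled by TMM, by ERCC spike-ins, by each reference gene or by a mean of several (bars, log2 axis from a median of 0), with the number of genes called at the right. *Ywhaz*, *Hprt* and *Gapdh* leave the median within 0.04 of 0, and *Gusb* moves it to -1.14.

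Among the 8 genes, *Ywhaz* thus had the smallest SD over the 4 libraries, the smallest M and the interval nearest to no change, *Hprt* had the smallest fold change, and the differences among *Ywhaz*, *Tbp* and *Hprt* in M were within the range that leaving out 1 library produced. *Hprt* and *Tbp* had no window of their transcript elsewhere in the genome, whereas *Ywhaz* had most of its windows elsewhere. *Gusb* was the least stable by SD, M, fold change and interval over all 4 libraries.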

How the data were processed

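RNA-seq counts of 2 WT and 2 KO2 libraries were analysed. RNA had been isolated in duplicate, depleted of ribosomal RNA and made into strand-specific libraries. The values deposited by the authors are whole-number counts of reads on each gene, 1 file a library, neither normalised nor pooled. The submitters' processing notes name HISAT2, HTSeq, DESeq2 and mm9, and versions, annotation and counting options are not given in the sources used here. Besides 48526 genes the files hold 92 rows of ERCC spike-ins and 5 summary rows (unassigned reads). These rows, 52.9 to 58.8% of each file's total, stayed out of library sizes and tests.

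Genes were kept by filterByExpr (minimum count 10, minimum total 15) and scaled by TMM (factors 0.952, 0.980, 1.06 and 1.01). KO2 was compared with WT by glmQLFit and glmQLFTest in edgeR 4.0.16 (R 4.3.3, limma 3.58.1), with group as the only term, Benjamini-Hochberg adjustment and a threshold of 0.05. The step was tested on simulated data. The fit scaled to *Ppia* used the older quasi-likelihood method, since the newer one could not be fitted. DESeq2 1.42.0, other scalings and filters, a replicate block and leaving out each library were alternatives. Scaling to single genes other than *Actb*, the alternatives for calls of single genes outside the 8 and window lengths of 43 and 75 bases were added after seeing the data.

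Members and lists were chosen with earlier results of these data known. Named genes were the 8 members, *Zfp296*, *Actb*, every called other reference gene, the 2 reference genes of 100 CPM or more with the smallest change, at most 3 called genes per family and the 5 genes most like the mean of the 8. *Sox2*, *Krt8*, *Tubb5*, *Eef1a1*, the Y-linked genes, *Dazl* and *Lefty2* were named outside that rule. Transcripts, coordinates and copies came from the mm9 genome (NCBIM37) with GENCODE annotation, and copies within 2000 bases of each other were counted as 1 locus. Gene counts of 2829914 to 7470907 per library limit precision, and counting SEs cover counting error only.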

Additional observations from a re-analysis of the deposited data

How the results depend on the processing

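Precision is limited by 2 libraries a group, 1 clone, the depth of the WT libraries and, for *B2m*, its low count. The 726 calls over all genes became 803 (RLE), 758 (upper quartile), 456 (DESeq2), 656 (older method), 728 (at least 10 counts in every library), 61 (no filter), 163 (ERCC), 568 (mean of the 8), 570 (*Gapdh* and *Actb*), 3534 (*Actb*), 231 (*Gapdh*), 366 (*Hprt*), 37 (*Ppia*), 8168 (*Gusb*), 422 (*Polr2a*) and 40 (*B2m*), and 270 to 691 with each library left out in turn, with 270 without WT replicate 1, 420 without WT replicate 2 and 466 without KO2 replicate 1. ERCC reads were 0.0695 to 0.0940% of gene counts. Of the 8 genes, edgeR called 0 on the ERCC scale and 0 with no filter (each 1 at an unadjusted p under 0.05), 2 on the *Actb* scale, and 1 to 2 with a library left out (2 without KO2 replicate 2), while DESeq2 called 1. Of the other reference genes it called 0 on the ERCC scale (2 unadjusted), 1 with *Gapdh* and *Actb*, 10 with *Actb*, 1 with no filter and 1 to 4 with a library left out (1 without WT replicate 1, 2 without KO2 replicate 1).

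*Gusb* missed the threshold at 1.22 on the log2 scale on the ERCC scale (adjusted p = 0.0624), 1.17 with no filter (0.147), 0.81 on the *Polr2a* scale (0.173) and 1.55 on the *Ppia* scale (0.402), and ranged from 0.86 to 1.40 with a library left out. *Ppia* passed at -0.93 on the *Actb* scale and -1.55 on the *Gusb* scale and ranged from -0.87 to 0.019. Estimates near 0 changed sign. *Gapdh* gave 0.033 (ERCC), 0.0037 (no filter), 0.0055 (at least 10 counts), 0.34 (*B2m* scale) and -0.21 to 0.22, and passed at -1.21 on the *Gusb* scale. *Hprt* gave 0.0056 (upper quartile), 0.057 (ERCC), 0.022 (no filter), 0.020 (at least 10 counts), 0.37 (*B2m* scale) and -0.15 to 0.16, and passed at -1.19 (*Gusb* scale). *Ywhaz* gave -0.048 (mean of the 8), -0.21 (*Gapdh* and *Actb*), -0.42 (*Actb*) and -0.054 to 0.10, and passed at -1.11 (*Gusb* scale). *Tbp* passed at -1.25 (*Gusb* scale) and gave 0.28 (*Ppia* scale), *Polr2a* gave -0.14 (*Actb*) and -0.80 (*Gusb* scale), and *B2m* passed at -1.52 (*Gusb* scale) and gave 0.012 (*Ppia* scale). M of *Ywhaz* was 0.228 with the other reference genes included. Beyond the scale each setting applies, the cause was not tested.

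By list, edgeR called 0 TFIID genes on the ERCC scale, the mean of the 8, *Gapdh* and *Actb* and no filter (0 to 2 unadjusted) and 0 to 1 with a library left out. It called 0 purine salvage genes on the ERCC scale, *Gapdh* and *Actb* and no filter (1 to 3 unadjusted) and 0 to 1 with a library left out. It called 1 lysosomal gene on the mean of the 8, on *Gapdh* and *Actb* and with the replicate block, and 0 to 1 with a library left out (1 without KO2 replicate 1). Of the glycolytic enzymes it called 1 (ERCC), 3 (mean of the 8), 3 (*Gapdh* and *Actb*), 1 (no filter) and 4 to 8 with a library left out.

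Samples with the same number did not deviate together (correlation 0.0029 over 12883 genes). That value cannot show whether they shared a culture or day, which the sources used here do not state. With the replicate block as a term, 946 genes and 2 of the 8 reference genes were called, *Ppia* at -0.43 (adjusted p = 0.0192) in addition to *Gusb*, and *Hprt* was at 0.0010.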

Other observations

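Sequence shared with other places in the genome was common among reference genes in general. Of the 30 other reference genes, 11 had at least 50% of their 50-base windows at another locus and 9 had none. *Rps29*, a ribosomal protein gene chosen after its values were seen, with 76.0% of windows elsewhere, was at 56.3 and 122 CPM in WT and 209 and 106 CPM in KO2, with a log2 fold change of 0.79 (SE 0.27, adjusted p = 0.0997 in edgeR's quasi-likelihood test).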
